A study of Rattus norvegicus with 30 samples.

Results

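Transcripts of 8 genes that build triglyceride or hand it to secreted lipoprotein were followed in rat hepatocytes in culture that had received diisononyl phthalate (DINP), a phthalate plasticiser. The genes are Gpam, Agpat2, Agpat3, Lpin1, Lpin2, Dgat1, Dgat2 and Mttp. They were taken by name, as every probe set that the platform annotation assigns to one of them and to no other gene, which gave 17 probe sets among the 31042 non-control probe sets of the array and 8 genes among 14217. Of these, 15 probe sets were bright enough to be tested, at least 1 for each of the 8 genes, out of 18625 probe sets and 10604 genes tested in all. Both probe sets that were too dim belong to Agpat3.

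The cells were primary hepatocytes of male Sprague Dawley rats, bought frozen, plated on collagen, covered with Matrigel and dosed on day 3. At 24 h there were 3 groups of 5 arrays, which were DINP at 25 mM, DINP at 100 mM, and the vehicle, 1% DMSO, and the same 3 groups were sampled at 48 h. The unit mM is printed as the labels give it, since nothing in the sources used here allowed it to be checked. All 3 kinds of culture contained the frozen cells and the overlay, so no group shows hepatocytes without them. The sample labels give DMSO for the vehicle cultures and only the dose for the DINP cultures. No group was left without both DINP and DMSO. Each array stands for 1 culture well, and the sources used here do not name donor animals, so p-values measure the spread between wells.

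Triglyceride is assembled on a glycerol backbone. Gpam, a mitochondrial glycerol-3-phosphate acyltransferase, adds the first acyl chain, and the acylglycerol-phosphate acyltransferases Agpat2 and Agpat3 add another to give phosphatidate. The lipins Lpin1 and Lpin2 remove its phosphate to leave diacylglycerol, and Dgat1 and Dgat2 add the last acyl chain. Mttp, the microsomal triglyceride transfer protein, then loads lipid onto apolipoprotein B, the scaffold of very low density lipoprotein (VLDL). Phosphatidate and diacylglycerol are also the branch points to the phospholipids, and lipin 1 has a further role in the nucleus as a coactivator of fatty acid oxidation genes.

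Signals are the linear intensities deposited for each probe set and array. Differences are on the scale of log2(signal + 16), DINP minus the vehicle of the same time unless stated otherwise, with limma's standard error and limma's p adjusted by the Benjamini-Hochberg method over all tested probe sets, 5 arrays against 5. A gene is called changed where that adjusted p is under 0.05, and it is represented by its brightest tested probe set. Fewer cells and less RNA per cell cannot be told apart in such bulk samples. Levels of different genes are not compared, because probe sets differ in how they bind. Only changes with DINP are compared between the paired enzymes of a step, and their size too can depend on the probe set.

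The 8 genes did not all move in the same direction. Dgat1, Mttp and Agpat2 were higher with DINP at both doses and both times, Lpin1 was lower in all 4 comparisons, and in these 4 genes the DINP arrays lay apart from the vehicle arrays of their time. At 25 mM and 24 h, 4 of the 8 genes rose and 2 fell, against 7.87% of all tested genes called higher and 7.84% called lower. At 100 mM and 24 h the numbers were again 4 and 2, against 7.54% and 7.02%. At 25 mM and 48 h, 6 rose and 1 fell, against 9.78% and 12.1%, and at 100 mM and 48 h, 4 rose and 1 fell, against 8.69% and 9.2%. Both doses of a time were set against the same 5 vehicle arrays, so their counts are not independent. The median log2 difference of the 8 genes was 0.25, 0.18, 0.30 and 0.20 in the order just given, beside medians of -0.03, -0.03, -0.03 and -0.06 over all tested genes. The DINP and vehicle arrays were separate for 6, 5, 6 and 5 of the 8 genes in that order, beside 13.5%, 13.7%, 13.6% and 13.2% of all tested genes.

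**Figure D1:**
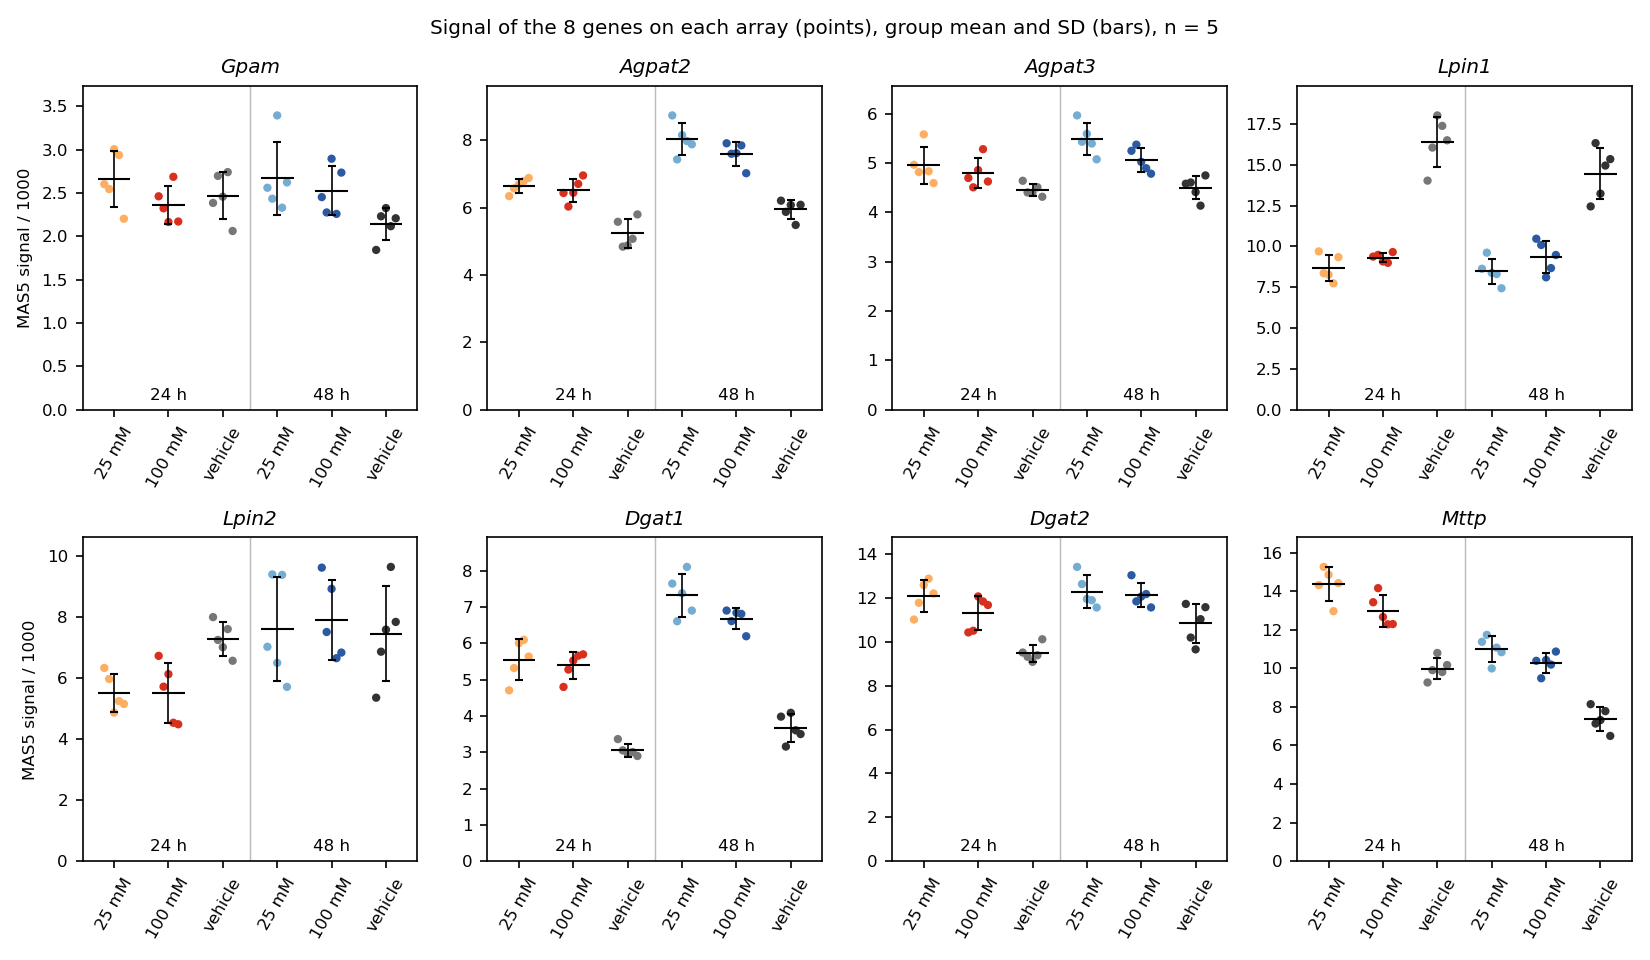
Deposited signal (vertical axis, in units of 1000, starting at 0) of the brightest tested probe set of each gene on every array, with 5 points, the mean and the SD for each group of DINP dose or vehicle (horizontal axis) at 24 h and 48 h. Dgat1, Mttp and Agpat2 points lie above their vehicle points at both times, Lpin1 points lie below them, and the Lpin2 points mix at 48 h.

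**Figure D2:**
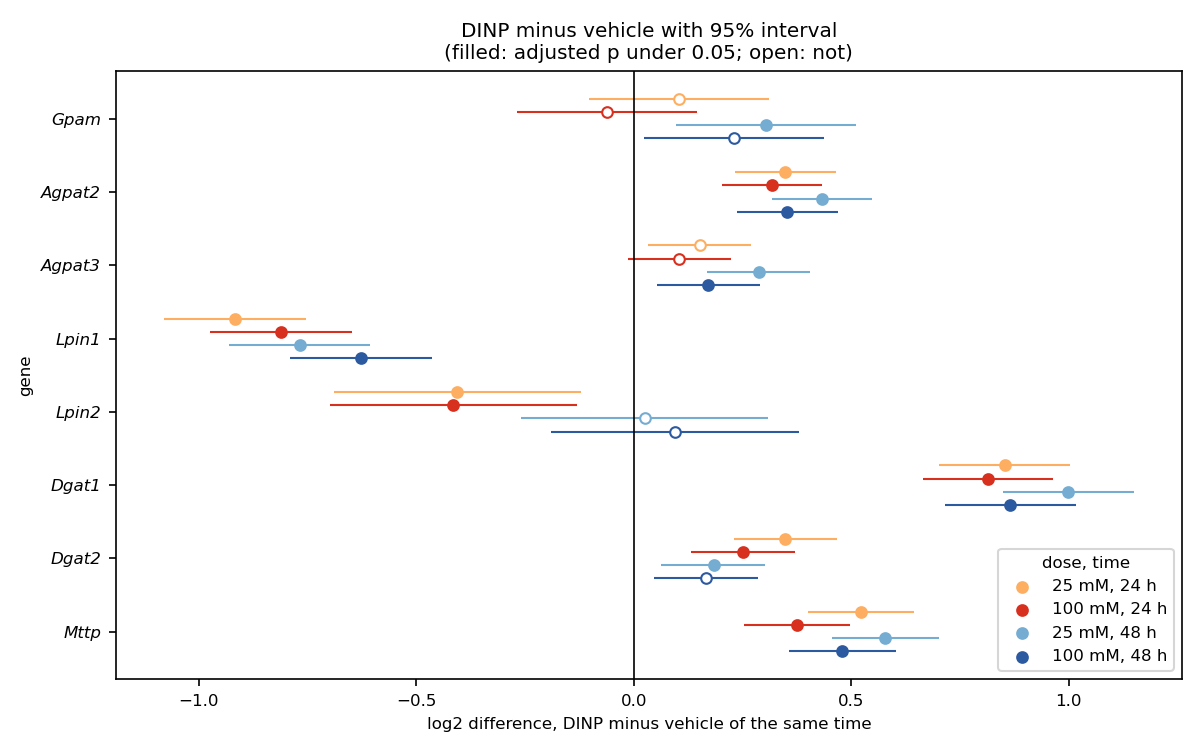
Log2 difference between DINP and the vehicle of the same time (horizontal axis) for each gene (vertical axis), with its 95% interval and 1 colour for each dose and time. Filled points passed an adjusted p of 0.05, and they run from -0.92 for Lpin1 to 1.00 for Dgat1.

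Gpam, at the entry of the pathway, showed no called change at 24 h. Its signals then were 2600.4, 2544, 3004, 2936 and 2201 in the 25 mM cultures and 2461, 2322, 2164, 2685 and 2169.7 in the 100 mM cultures, against 2384, 2696, 2456, 2739 and 2060.3 in the vehicle cultures. The 3 groups overlapped. At 48 h they were 2559, 2433, 3393, 2329 and 2621 at 25 mM and 2451, 2274, 2894, 2258 and 2734 at 100 mM, against 1842, 2229.9, 2325, 2116 and 2207 in vehicle. Every 25 mM array was then above every vehicle array, while the lower 100 mM arrays lay within the vehicle range. At 25 mM and 48 h Gpam was 1.24-fold higher (0.30 ± 0.10, adjusted p = 0.0336), and at 100 mM the difference was 0.23 ± 0.10 (adjusted p = 0.133). The call at 25 mM was lost in 7 of 21 alternative settings, among them without DINP 25 mM 48 h replicate 3, its highest array (0.21, adjusted p = 0.153), and without vehicle 48 h replicate 1, its lowest (0.25, adjusted p = 0.0974). Without DINP 25 mM 48 h replicate 5 or vehicle 48 h replicate 4 the adjusted p was 0.0519 or 0.0606. The other Gpam probe set, 1369758, was dimmer and differed by 0.48 ± 0.11 at 25 mM (adjusted p = 0.00261) and by 0.34 ± 0.11 at 100 mM (adjusted p = 0.041), both at 48 h, and it too was not called at 24 h.

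Agpat2, which converts lysophosphatidate to phosphatidate, rose in all 4 comparisons. Its 24 h signals were 6347, 6575, 6696, 6795 and 6885 at 25 mM and 6439, 6037, 6447, 6710.0 and 6961 at 100 mM, against 5584, 4845, 4881, 5078 and 5803 in vehicle. All 10 DINP arrays exceeded the highest vehicle array. At 48 h the signals were 8745, 7437, 8158, 7985 and 7888 at 25 mM and 7917, 7605, 7622, 7855 and 7027 at 100 mM, against 6212, 5878, 6082, 5489.6 and 6089 in vehicle, and again no DINP array reached down to the vehicle range. The rises were 1.27-fold at 25 mM and 1.25-fold at 100 mM after 24 h (0.35 ± 0.06 and 0.32 ± 0.06, adjusted p = 2.88e-05 and 0.000136). After 48 h they were 1.35-fold and 1.28-fold (0.43 ± 0.06 and 0.35 ± 0.06, adjusted p = 5.6e-07 and 2.25e-05).

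Agpat3, another enzyme for the same step, rose at 48 h by its brightest probe set. At 24 h its brightest probe set gave 4967, 4818, 5583, 4834 and 4595 at 25 mM and 4699, 4509, 4858, 5283 and 4627 at 100 mM, against 4642, 4405, 4397, 4512 and 4317 in vehicle, and the groups overlapped at both doses. At 48 h it gave 5967, 5434, 5594, 5398 and 5077 at 25 mM and 5250.1, 5374, 5025, 4897 and 4786 at 100 mM, against 4582, 4607, 4413, 4137 and 4750.1 in vehicle. Here both doses stood clear of the vehicle arrays. The 48 h rises were 1.22-fold at 25 mM (0.29 ± 0.06, adjusted p = 0.000436) and 1.13-fold at 100 mM (0.17 ± 0.06, adjusted p = 0.0427), and the 24 h differences, 0.15 ± 0.06 and 0.10 ± 0.06, were not called. The 100 mM call at 48 h was lost in 11 of 21 alternative settings, 7 of which each left out 1 array. The probe sets of Agpat3 did not move as one. Probe set 1397491 was called higher in 3 comparisons (0.42 ± 0.11 at 100 mM and 24 h, 0.31 ± 0.11 at 25 mM and 48 h, 0.40 ± 0.11 at 100 mM and 48 h). Probe set 1372276 differed by 0.41, 0.30, 0.34 and 0.37 and probe set 1382227 by 0.02, -0.17, 0.10 and -0.19 (25 and 100 mM at 24 h, then 25 and 100 mM at 48 h), and neither was called. With the median over its probe sets Agpat3 was not called at 48 h at 25 mM (0.21, adjusted p = 0.104) or at 100 mM (0.14, adjusted p = 0.306).

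Lpin1, the phosphatidate phosphatase with the added nuclear role, was the 1 gene of the 8 that fell in every comparison with the vehicle. Its 24 h signals were 9693, 8357, 8269, 7735 and 9339 at 25 mM and 9374, 9481, 9076, 8992 and 9652 at 100 mM, against 14029, 16053, 18022, 17381 and 16499 in vehicle. The highest DINP array was far under the lowest vehicle array. At 48 h they were 8629, 9615, 8373, 8306 and 7435 at 25 mM and 10469, 10088, 8106, 8669 and 9473 at 100 mM, against 12448, 16326, 13229.5, 14951 and 15346 in vehicle, with the same separation. Lpin1 was 1.89-fold lower at 25 mM and 1.75-fold lower at 100 mM after 24 h (-0.92 ± 0.08 and -0.81 ± 0.08, adjusted p = 1.56e-10 and 3.14e-09). After 48 h it was 1.70-fold and 1.54-fold lower (-0.77 ± 0.08 and -0.63 ± 0.08, adjusted p = 6.38e-09 and 4.98e-07). The second Lpin1 probe set, 1377599, fell by 0.94 ± 0.09, 0.86 ± 0.09, 0.68 ± 0.09 and 0.63 ± 0.09 in the same order, close to the first, and it also kept DINP and vehicle arrays apart throughout.

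Sequence upstream of the start was at hand for 5 of the 8 genes (Gpam, Agpat2, Agpat3, Lpin1 and Lpin2), as the 250 bases before the start in RefSeq's table for assembly GRCr8. That of Lpin1, the gene that fell throughout, and that of Agpat3, the only one with a motif match, are shown, 5′ to 3′ on the strand of the gene, with the match in capitals. In all 5 genes the start used by the table lies inside the annotated gene, which reaches further upstream. The Lpin1 window is chr6:45108943-45109192 on the minus strand and the Agpat3 window is chr20:10383931-10384180 on the plus strand.
Lpin1: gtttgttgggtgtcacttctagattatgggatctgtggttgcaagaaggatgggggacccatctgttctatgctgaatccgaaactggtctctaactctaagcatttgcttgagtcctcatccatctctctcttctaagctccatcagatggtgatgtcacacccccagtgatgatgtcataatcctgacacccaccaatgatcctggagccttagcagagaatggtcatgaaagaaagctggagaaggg
Agpat3: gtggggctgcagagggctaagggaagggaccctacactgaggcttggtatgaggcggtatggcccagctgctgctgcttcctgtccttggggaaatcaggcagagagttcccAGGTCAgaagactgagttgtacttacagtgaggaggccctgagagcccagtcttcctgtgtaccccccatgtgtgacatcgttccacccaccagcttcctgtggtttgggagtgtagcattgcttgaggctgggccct

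In these windows 5 motifs were searched on both strands. The nuclear receptor half-site AGGTCA was in 1 of the 5 member windows, that of Agpat3, starting 138 bases before the start, and in 14.1% of the 33469 promoters of the table. Of the other motifs, 0 of the 5 member windows held a match. The direct repeat 1 of that half-site, which contains the half-site itself, was in 0.0508% of all promoters, the sterol response element TCACNCCAC in 0.974%, the E-box CACGTG in 5.59% and the cAMP response half-site TGACG in 18.2%. G and C made up 47.2% of the Lpin1 window, 51.2% of that of Gpam, 58% of that of Agpat3, 78.4% of that of Agpat2 and 82.4% of that of Lpin2. A match is a run of letters, and its absence says only that these letters are not in this window.

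Lpin2, another phosphatidate phosphatase of liver, was lower at 24 h and mixed at 48 h. Its 24 h signals were 6339, 5976, 4872, 5252 and 5158 at 25 mM and 6734, 5724, 6135, 4540.0 and 4490.4 at 100 mM, against 8005, 7257, 7019.6, 7613 and 6574 in vehicle. The 25 mM arrays all lay under the vehicle arrays, and 1 of the 100 mM arrays reached into the vehicle range. At 48 h the signals were 7032, 9406, 6504, 9392 and 5718 at 25 mM and 9629, 7518, 8934, 6659 and 6842 at 100 mM, against 5363, 6871, 7596, 9653 and 7848 in vehicle. Those 3 groups covered the same broad range. The 24 h differences, -0.41 ± 0.14 (adjusted p = 0.0499) and -0.41 ± 0.14 (adjusted p = 0.046), were called only narrowly, and the calls were lost in 14 and 12 of 21 alternative settings, which included 8 and 7 of the 10 that left out 1 array. The 48 h differences were 0.03 ± 0.14 and 0.10 ± 0.14, and neither was called. The dimmer Lpin2 probe set, 1396398, was not called in any of the 4 comparisons.

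Dgat1, which catalyses the last acylation in the endoplasmic reticulum, showed the largest rise of the 8 genes in each of the 4 comparisons. Its 24 h signals were 4704, 5318, 6005, 6096 and 5636 at 25 mM and 4798, 5277, 5526, 5659 and 5696 at 100 mM, against 3362, 3051, 2968, 3005 and 2896 in vehicle. The lowest DINP array was well above the highest vehicle array. At 48 h the signals were 7644, 6607, 7378, 8104 and 6902 at 25 mM and 6903, 6612, 6841, 6811 and 6195 at 100 mM, against 3980.2, 3156, 4085, 3604 and 3500.4 in vehicle, and the gap was wider still. Dgat1 rose 1.81-fold at 25 mM and 1.76-fold at 100 mM after 24 h (0.85 ± 0.07 and 0.81 ± 0.07, adjusted p = 1.35e-10 and 5.06e-10). After 48 h it rose 2.00-fold and 1.82-fold (1.00 ± 0.07 and 0.87 ± 0.07, adjusted p = 3.26e-12 and 1.04e-10).

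Dgat2, an unrelated protein that carries out the same reaction, moved less. Its 24 h signals were 11026, 11791, 12603, 12893 and 12218 at 25 mM and 10439, 10516, 12082, 11850.4 and 11690.2 at 100 mM, against 9520.2, 9327, 9095, 9397 and 10127 in vehicle, and all DINP arrays lay above the vehicle arrays. At 48 h they were 13428, 12645, 11967, 11908 and 11577 at 25 mM and 13049, 11856, 12076, 12189.7 and 11579 at 100 mM, against 11739, 10204, 9665, 11043 and 11589.7 in vehicle. Now the lowest arrays of each dose fell within the vehicle range. Dgat2 rose 1.27-fold at 25 mM (0.35 ± 0.06, adjusted p = 4.61e-05) and 1.19-fold at 100 mM after 24 h (0.25 ± 0.06, adjusted p = 0.003). With the median over its probe sets the 100 mM value was 0.14 (adjusted p = 0.104). At 48 h the rise at 25 mM was 0.18 ± 0.06 (adjusted p = 0.0254), lost in 8 of 21 alternative settings, and the difference at 100 mM, 0.17 ± 0.06 (adjusted p = 0.0523), missed the threshold, which it passed in 6 of the 21. The 8 losses at 25 mM included leaving out DINP 25 mM 48 h replicate 1 or 2 and vehicle 48 h replicate 2 or 3, with adjusted p between 0.0513 and 0.103. The 6 gains at 100 mM included median centring (0.27, adjusted p = 0.0295) and leaving out vehicle 48 h replicate 1 or 5 or DINP 100 mM 48 h replicate 5 (adjusted p = 0.024, 0.0345 and 0.0458). The other Dgat2 probe set, 1391045, was not called in any comparison with the vehicle (0.23, 0.03, 0.00 and -0.13 in the order 25 and 100 mM at 24 h, then 25 and 100 mM at 48 h).

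**Figure D3:**
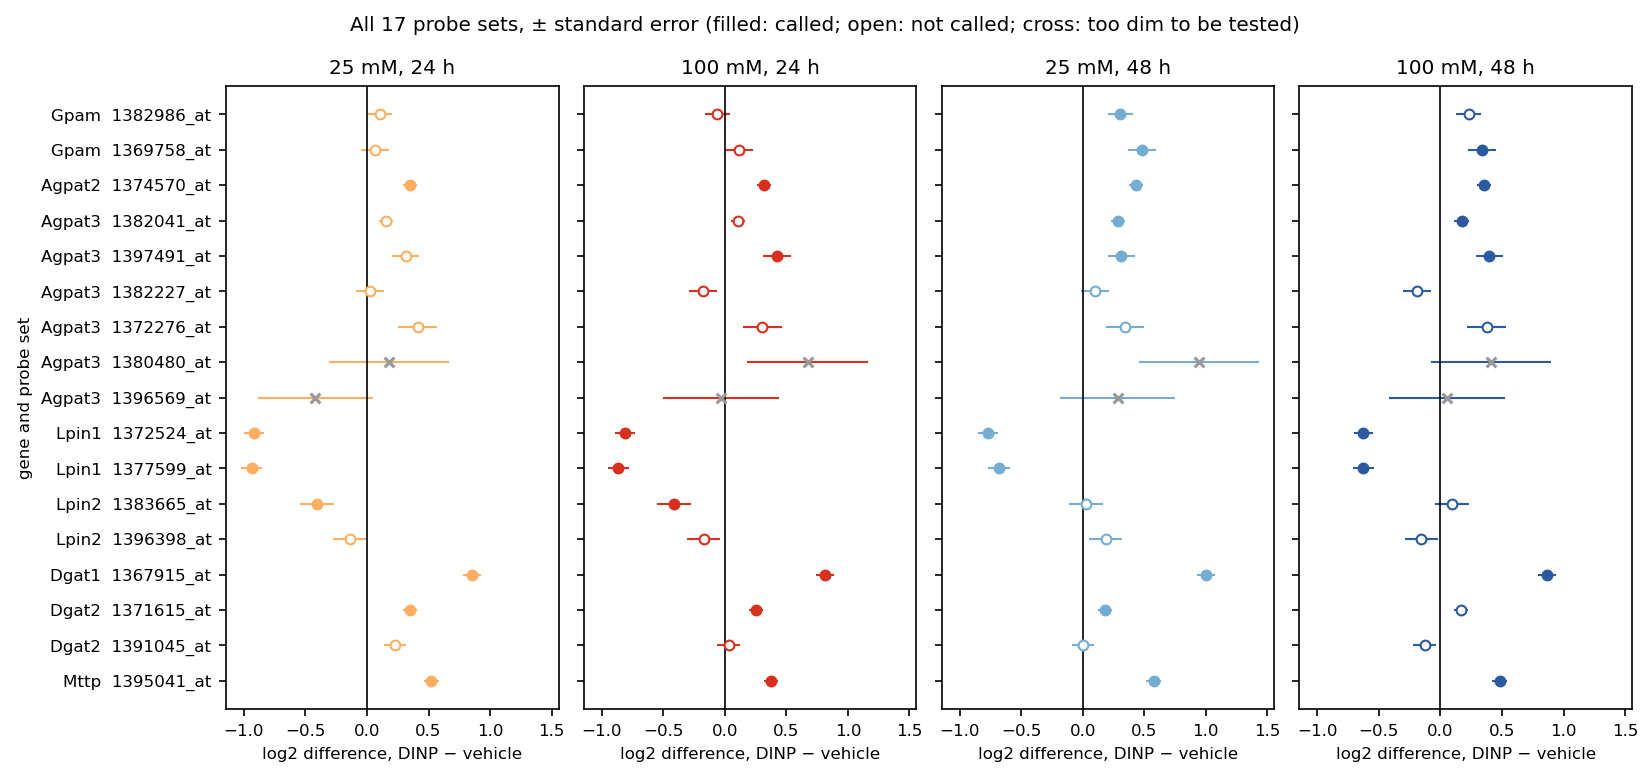
Log2 difference between DINP and vehicle (horizontal axis) for all 17 probe sets (vertical axis), in 1 panel for each dose and time, with limma's standard error as bars. Both Lpin1 probe sets lie together on the left in every panel, while those of Gpam, Agpat3, Lpin2 and Dgat2 spread on both sides of 0 in at least 1 panel.

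Mttp, needed for VLDL assembly, rose in all 4 comparisons. Its 24 h signals were 14312, 15256, 14854, 12961 and 14418 at 25 mM and 13424, 14155, 12660.2, 12281 and 12293 at 100 mM, against 9264, 9904, 10795, 9807 and 10168 in vehicle. At 48 h they were 11372, 11734, 9992, 11069 and 10834 at 25 mM and 10388, 9482, 10428, 10193 and 10868 at 100 mM, against 8139, 7134, 7316, 7779 and 6493 in vehicle. The DINP arrays were above all vehicle arrays of their time, while the 48 h DINP range overlapped that of the 24 h vehicle arrays. Mttp rose 1.44-fold at 25 mM and 1.30-fold at 100 mM after 24 h (0.52 ± 0.06 and 0.38 ± 0.06, adjusted p = 5.98e-08 and 2.79e-05). After 48 h it rose 1.49-fold and 1.40-fold (0.58 ± 0.06 and 0.48 ± 0.06, adjusted p = 6.04e-09 and 3.33e-07).

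The paired enzymes of a step differed in their response by their brightest probe sets. For each pair, the log2 difference between its brightest tested probe sets was taken within every array and compared between DINP and vehicle with a two-sided exact permutation test, a comparison chosen after the values were seen. It compares changes, not levels. In 12 such tests the smallest p that 5 against 5 arrays allow is 0.0079. Both doses of a time share the same 5 vehicle arrays, so the tests are not independent. Dgat1 rose more than Dgat2 by 0.50 log2 units at 25 mM and 0.56 at 100 mM after 24 h, and by 0.82 and 0.70 after 48 h (exact p = 0.0079 in each, the smallest possible, Benjamini-Hochberg adjusted p = 0.014 over the 12 tests), and all 5 DINP arrays exceeded all vehicle arrays each time. Lpin1 changed further downward than Lpin2, with a change in their log2 difference of -0.51 at 25 mM (exact p = 0.016, adjusted 0.021) and -0.40 at 100 mM (exact p = 0.04, adjusted 0.04) after 24 h. After 48 h the changes were -0.79 and -0.72 (exact p = 0.0079, adjusted 0.014 in both). The gap between Agpat2 and Agpat3 was smaller, with 0.20 (exact p = 0.04, adjusted 0.04) and 0.21 (exact p = 0.032, adjusted 0.038) after 24 h and 0.15 (exact p = 0.016, adjusted 0.021) and 0.18 (exact p = 0.0079, adjusted 0.014) after 48 h, in each case 25 mM first. For Lpin1 minus Lpin2, 4 and 3 of 5 DINP arrays lay under all vehicle arrays at 24 h, and 5 and 5 at 48 h. For Agpat2 minus Agpat3, 3 and 2 of 5 lay above all vehicle arrays at 24 h, and 4 and 5 at 48 h. No other probe set was tested in this way. Agpat3 probe set 1397491 differed between DINP and vehicle by 0.31, 0.42, 0.31 and 0.40, beside 0.35, 0.32, 0.43 and 0.35 for Agpat2 (25 and 100 mM at 24 h, then 25 and 100 mM at 48 h), so the gap of that pair depends on the probe set.

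Between the doses no gene of the 8 was called. At 24 h, 0 of the 8 genes were called in 100 mM minus 25 mM (1 at an unadjusted p under 0.05 by limma), against 0.00943% of all genes called higher and 0 called lower, and at 48 h the count was 0 (0 at an unadjusted p under 0.05), against the same 0.00943% and 0. Mttp was the gene with the low unadjusted p. It averaged 12963 ± 812 at 100 mM and 14360.0 ± 867 at 25 mM after 24 h (signal, SD, n = 5 each), a difference of -0.15 with a 95% interval of -0.27 to -0.03 (unadjusted p = 0.0197 and adjusted p = 1, both by limma). For Dgat1 the interval of 100 mM minus 25 mM ran from -0.19 to 0.11 at 24 h and from -0.28 to 0.02 at 48 h. For Lpin1 it ran from -0.06 to 0.27 at 24 h and from -0.02 to 0.31 at 48 h. For Agpat2 it ran from -0.15 to 0.08 at 24 h and from -0.20 to 0.04 at 48 h. The intervals of Dgat1, Lpin1 and Agpat2 span 0 and leave room for small dose differences.

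Nor was the effect of a dose called different between the times. Of the 8 genes, 0 were called in the 48 h effect minus the 24 h effect of 25 mM (1 at an unadjusted p under 0.05 by limma), against 0.245% of all genes higher and 0.113% lower. For 100 mM the count was also 0 (1 at an unadjusted p under 0.05), against 0.0849% and 0.0283%. In both it was Lpin2 that had the low unadjusted p. Its effect at 48 h exceeded that at 24 h by 0.43 at 25 mM (95% interval 0.03 to 0.83, adjusted p = 0.572) and by 0.51 at 100 mM (0.11 to 0.91, adjusted p = 0.645), so the fall at 24 h is not shown to differ from the 48 h result. For Dgat1 the change in effect was 0.14 (-0.07 to 0.36) at 25 mM and 0.05 (-0.16 to 0.27) at 100 mM. For Lpin1 it was 0.15 (-0.08 to 0.38) at 25 mM and 0.18 (-0.05 to 0.41) at 100 mM. For Gpam it was 0.20 (-0.09 to 0.49) at 25 mM and 0.29 (-0.002 to 0.58) at 100 mM, and for Dgat2 it was -0.17 (-0.33 to 0.003) and -0.09 (-0.25 to 0.08).

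**Figure D4:**
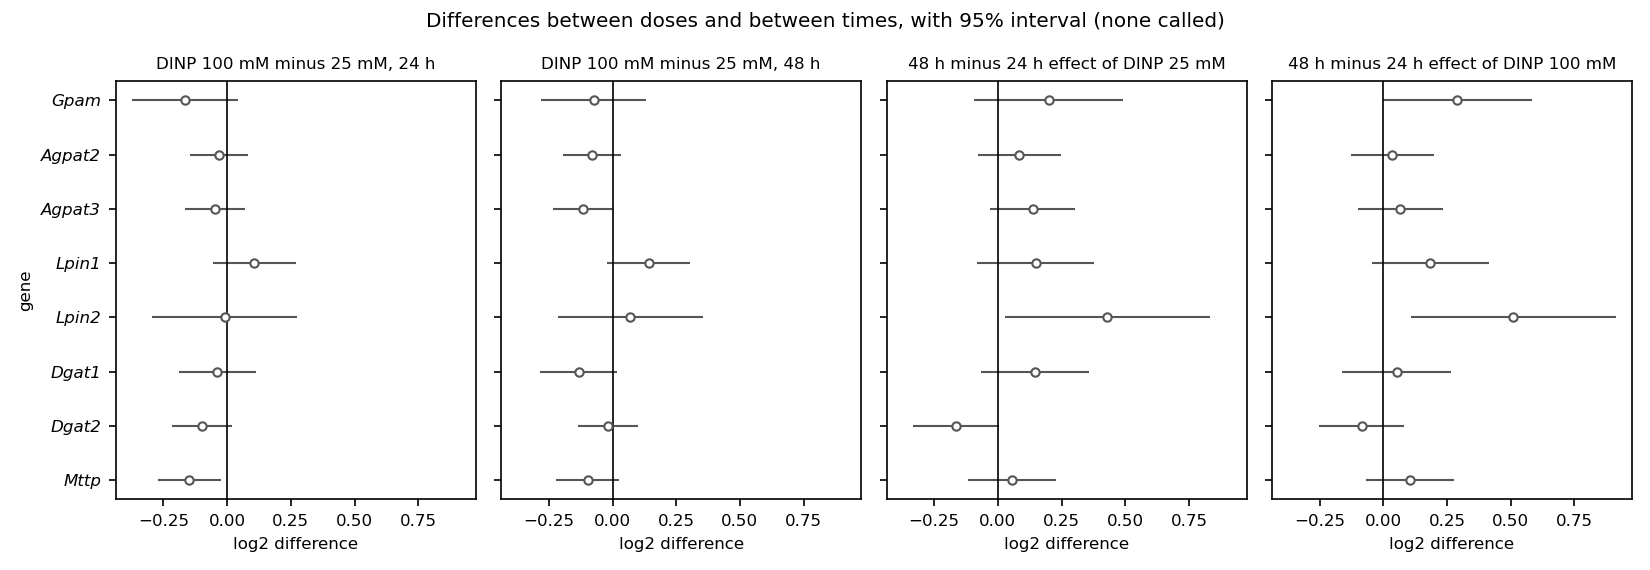
Log2 differences (horizontal axis) of each gene (vertical axis) for 100 mM minus 25 mM at each time and for the 48 h effect minus the 24 h effect at each dose, with 95% intervals. Most intervals include 0, those of Mttp between the doses at 24 h and of Lpin2 between the times leave it out, and none of the 32 differences was called.

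In the vehicle cultures alone, Mttp fell with time, and Dgat1, Dgat2 and Agpat2 rose slightly. Of the 8 genes, 3 were called higher and 1 lower in vehicle at 48 h than at 24 h, against 9.49% and 7.92% of all genes. Mttp averaged 7372 ± 629.9 at 48 h and 9987 ± 558 at 24 h (signal, SD, n = 5 each), and fell by 0.44 ± 0.06 (adjusted p = 4.41e-06). Dgat1 averaged 3665 ± 376 and 3057 ± 179.9 at those times, 0.26 ± 0.07 higher at 48 h (adjusted p = 0.0164). Dgat2 was 0.19 ± 0.06 higher (adjusted p = 0.0253) and Agpat2 was also 0.19 ± 0.06 higher (adjusted p = 0.0231). These 3 rises lost their call in 4 (Dgat1), 8 (Dgat2) and 7 (Agpat2) of 21 alternative settings, the lone removal of vehicle 48 h replicate 1 among those for Dgat1 (0.23, adjusted p = 0.0562), Dgat2 (0.16, adjusted p = 0.0874) and Agpat2 (0.17, adjusted p = 0.0626). The second probe sets of Lpin1 (1377599, -0.34, adjusted p = 0.00668) and Gpam (1369758, -0.34, adjusted p = 0.0423) were called lower at 48 h, and so were both genes with the median over their probe sets (Lpin1 -0.26, adjusted p = 0.0146, and Gpam -0.27, adjusted p = 0.0307). Time in culture and time in the vehicle pass together here.

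Across all 30 arrays, Dgat1 and Agpat2 signals ran in parallel (Pearson r = 0.934 of log2 values) and Dgat1 and Lpin1 opposite to each other (r = -0.922). Mttp followed Agpat2 only weakly (r = 0.242), and Lpin2 followed neither Dgat1 (r = -0.075) nor Agpat2 (r = -0.003). These values are descriptions over arrays that share 6 groups and 1 scaling. The tested genes whose profile was most like that of Dgat1 were Slc6a13 (r = 0.975), Aig1 (0.971) and Tmem14c (0.968). Nearest to Mttp were Clpx (0.961), Rnf125 (0.952) and Crot (0.948), and nearest to Lpin1 were Cdh2 (0.956), Exoc1 (0.947) and Rnf144b (0.936). Agpat2 had Apeh (0.944), Mcrip2 (0.943) and Stard10 (0.942) as its nearest. For Dgat2 they were Isca1 (0.891), Cyc1 (0.891) and Apeh (0.889), and for Agpat3 Fuca1 (0.841), Ergic3 (0.823) and Csk (0.822). The likeness was lower for Lpin2, with Gpr146 (0.723), Adora2b (0.719) and Pcsk6 (0.703), and for Gpam, with Rapgef4 (0.658), Abca3 (0.653) and Cd68 (0.639), a macrophage marker.

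Other enzymes of the same steps that passed the brightness filter, 8 of the 13 on the array, included no gene that rose (at an unadjusted p under 0.05 by limma, 3 were higher at 25 mM and 24 h, 1 at 100 mM and 24 h, and 0 at either dose at 48 h). Plpp1 and Plpp3, membrane lipid phosphate phosphatases, fell in all 4 comparisons, Plpp1 by 0.36 ± 0.06 at 25 mM and 24 h and Plpp3 by 0.46 ± 0.07. In that comparison 2 of the 8 fell, and in the others 2, 3 and 3 (100 mM at 24 h, then 25 and 100 mM at 48 h). Of all tested genes, 7.84%, 7.02%, 12.1% and 9.2% were called lower in these 4 comparisons, and 7.87%, 7.54%, 9.78% and 8.69% higher. With only 8 genes, whether 0 higher or these counts lower differ from such shares was not tested. Lpin3, the third lipin, was lower at 48 h (-0.36 ± 0.08 at 25 mM and -0.29 ± 0.08 at 100 mM, adjusted p = 0.00115 and 0.00904). At 24 h it was not called (-0.22 ± 0.08 and -0.19 ± 0.08, adjusted p = 0.0603 and 0.111). Without vehicle 24 h replicate 5 it was called lower there at both doses (adjusted p = 0.0158 and 0.0342). Its effect was not called different between the times (-0.14 at 25 mM and -0.10 at 100 mM, adjusted p = 0.824 and 0.957). The acyltransferases Gpat4, Agpat1, Agpat5 and Lclat1 and the phosphatase Plpp2 were not called in any of the 4. At 100 mM and 24 h, where Plpp1 differed by -0.22 ± 0.06, its call was lost with median centring (-0.14, adjusted p = 0.377) and with the median over its probe sets (-0.08, adjusted p = 0.675), and that of Plpp3 with the median over its probe sets (-0.31, adjusted p = 0.0583). At 48 h the median over the probe sets of Plpp3 gave -0.06 at 25 mM (adjusted p = 0.786) and -0.08 at 100 mM (adjusted p = 0.697), neither called. Median centring ended the calls at 100 mM and 48 h of Plpp1 (-0.21, adjusted p = 0.102), Plpp3 (-0.18, adjusted p = 0.169) and Lpin3 (-0.19, adjusted p = 0.119).

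**Figure D5:**
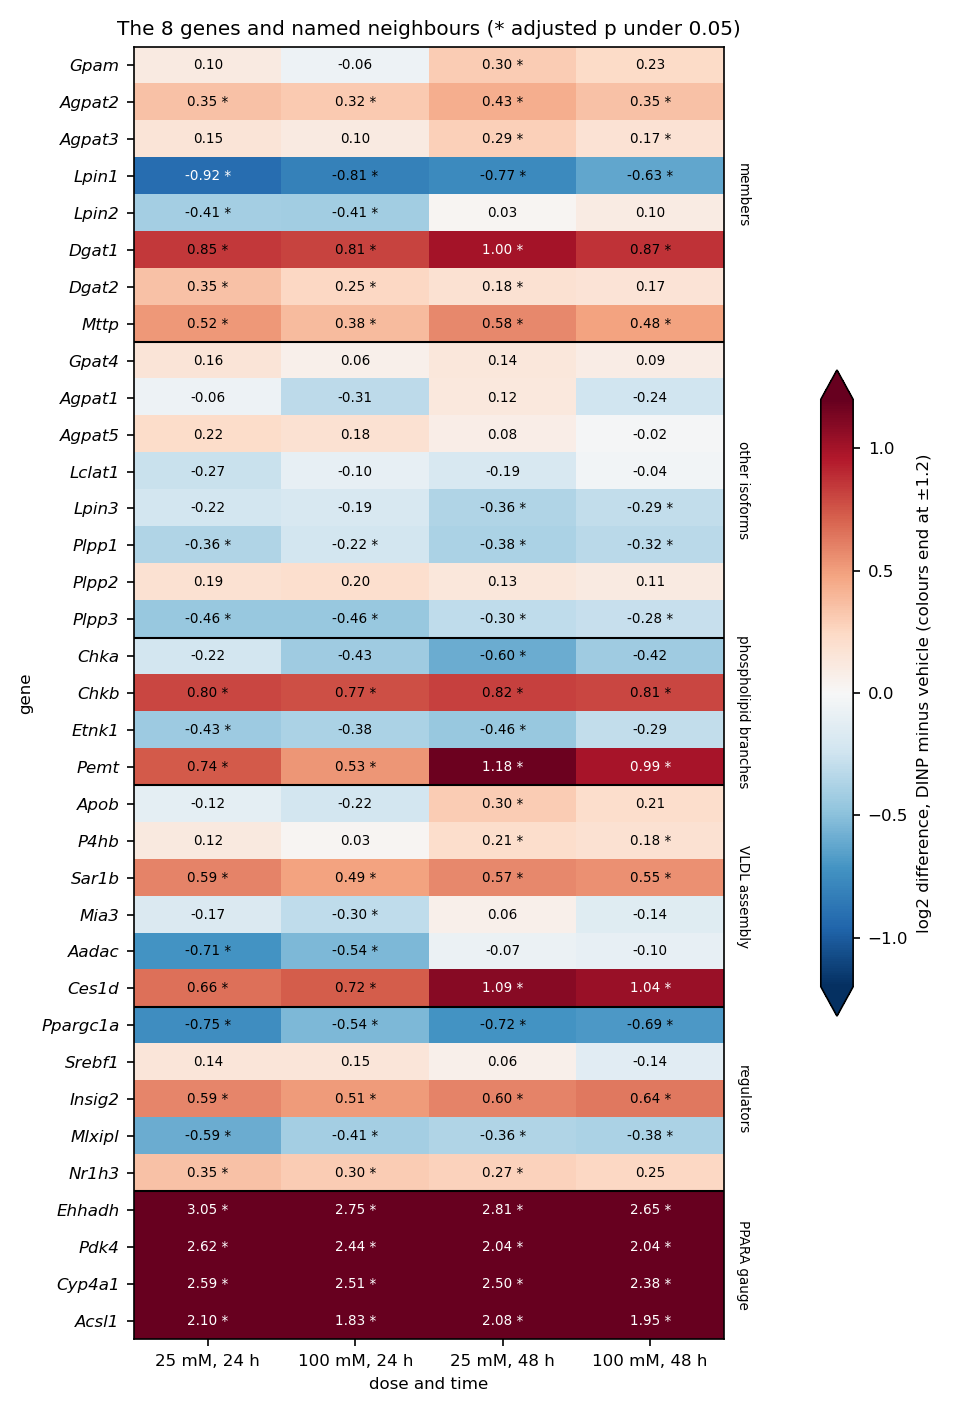
Log2 difference between DINP and vehicle at each dose and time (columns, printed in each cell and coloured, with the colours ending at 1.2 in either direction) for the 8 genes and the named genes of the lists around them (rows, lists divided by lines). Stars mark an adjusted p under 0.05, and Chkb, Pemt, Sar1b, Ces1d and Insig2 are starred upward and Ppargc1a and Mlxipl downward in all 4 columns.

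In the branches from phosphatidate and diacylglycerol to phospholipids, 6 of 18 tested genes rose and 1 fell at 25 mM and 24 h, 4 and 0 at 100 mM and 24 h, 7 and 3 at 25 mM and 48 h, and 6 and 0 at 100 mM and 48 h. Of all tested genes, 7.87% and 7.84%, 7.54% and 7.02%, 9.78% and 12.1%, and 8.69% and 9.2% were called higher and lower in that order. Whether the counts differ from these shares was not tested. The choline and ethanolamine kinase Chkb rose by 0.77 to 0.82 in the 4 comparisons. Pemt, which methylates phosphatidylethanolamine to phosphatidylcholine, rose by 0.74 ± 0.16 and 0.53 ± 0.16 at 24 h and by 1.18 ± 0.16 and 0.99 ± 0.16 at 48 h (25 mM, then 100 mM). The choline kinase Chka fell at 25 mM and 48 h (-0.60 ± 0.20), and the ethanolamine kinase Etnk1 fell at 25 mM at both times (-0.43 ± 0.13 at 24 h and -0.46 ± 0.13 at 48 h). The Chka call was lost in 9 of 21 alternative settings (adjusted p of at most 0.102), those of Etnk1 in 5 at 24 h and 4 at 48 h (at most 0.106 and 0.0862), and that of Pemt at 100 mM and 24 h in 3, each leaving out 1 array (at most 0.129). At an unadjusted p under 0.05 by limma, 2 genes of these branches were lower at 100 mM and 24 h and 3 at 100 mM and 48 h.

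Of 14 tested genes of VLDL assembly and secretion, 2 rose and 1 fell at 25 mM and 24 h, 2 and 2 at 100 mM and 24 h, 5 and 1 at 25 mM and 48 h, and 4 and 1 at 100 mM and 48 h. The shares of all tested genes called higher and lower, given above, were 7.87% and 7.84%, 7.54% and 7.02%, 9.78% and 12.1%, and 8.69% and 9.2%. The counts are small, and whether they differ from these shares was not tested. Sar1b, a small GTPase of the vesicles that carry lipoprotein out of the endoplasmic reticulum, rose by 0.49 to 0.59 in all 4. Ces1d, a carboxylesterase that mobilises stored triglyceride, rose by 0.66 to 1.09. Aadac, an arylacetamide deacetylase with lipase activity, fell at 24 h (-0.71 ± 0.11 at 25 mM and -0.54 ± 0.11 at 100 mM) and was not called at 48 h. Mia3 was called lower only at 100 mM and 24 h (-0.305 ± 0.08), a call lost with median centring (adjusted p = 0.0664). It differed by -0.17 at 25 mM and 24 h, and by 0.06 at 25 mM and -0.14 at 100 mM at 48 h. With the median over its probe sets it was called lower at 25 mM and 24 h (-0.36, adjusted p = 0.00282). P4hb, the partner subunit of Mttp, rose at 48 h, by 0.21 ± 0.05 at 25 mM and 0.18 ± 0.05 at 100 mM, and was not called at 24 h. With quantile normalization its value at 100 mM and 48 h was 0.06 (adjusted p = 0.374). Apob, which receives the lipid from Mttp, was called higher at 25 mM and 48 h (0.30 ± 0.10, adjusted p = 0.0403), but with the median over its probe sets the value there was -0.05, of opposite sign, and the call was lost in 12 of 21 alternative settings, 7 of them leaving out 1 array (adjusted p of at most 0.259).

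Of 16 tested regulators known to act on these genes, 2 rose and 3 fell at each dose at 24 h, 3 and 3 at 25 mM and 48 h, and 1 and 3 at 100 mM and 48 h. These counts are small, and whether they differ from those same shares of all tested genes was not tested. Ppargc1a, a transcriptional coactivator with which lipin 1 works, fell by 0.75 ± 0.13 and 0.54 ± 0.13 at 24 h and by 0.72 ± 0.13 and 0.69 ± 0.13 at 48 h (25 mM, then 100 mM). Insig2, which holds sterol-regulated transcription factors in the endoplasmic reticulum, rose by 0.51 to 0.64, and the glucose-responsive factor Mlxipl fell by 0.36 to 0.59. Of the 4 calls of Mlxipl, that at 25 mM and 48 h was lost in 13 of 21 alternative settings, that at 100 mM and 48 h in 10 and that at 100 mM and 24 h in 9, with adjusted p of at most 0.13, 0.171 and 0.116. Nr1h3 was called higher at 24 h (0.35 ± 0.09 at 25 mM and 0.30 ± 0.09 at 100 mM) and at 25 mM and 48 h (0.27 ± 0.09). It was not called at 100 mM and 48 h (0.25 ± 0.09). Of its calls, that at 100 mM and 24 h was lost in 4 of 21 alternative settings and that at 25 mM and 48 h in 11. The sterol-regulated factor Srebf1 was not called. Ppara, the receptor through which phthalates are known to act in rodent liver, was too dim to be tested (group means of 6.65 to 7.93 log2 signal, against 7.956 for the dimmest tested probe set). The 6 tested genes listed as a gauge of that receptor's response all rose in every comparison, and one of them, the peroxisomal enzyme Ehhadh, by 3.05 ± 0.10, 2.75 ± 0.10, 2.81 ± 0.10 and 2.65 ± 0.10 (25 and 100 mM at 24 h, then 25 and 100 mM at 48 h). The gauge, like the 8 genes, was listed with earlier results of these data known and is no independent evidence.

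Markers of hepatocytes were bright. Alb, Ttr, Apoa1, Serpina1, Fgb, Cps1 and Hnf4a, 7 of 7 on the array, were bright enough to be tested, and their summed signal overlapped between groups (586080 to 720430 at 25 mM, 606790 to 659420 at 100 mM and 585910 to 709780 in vehicle at 24 h, and 565800 to 679070, 598760 to 710310 and 558670 to 679020 at 48 h). Hnf4a was called higher at 25 mM and 48 h (0.25, adjusted p = 0.00387 by limma) and Fgb lower at 100 mM and 48 h (-0.16, adjusted p = 0.0366). Markers of other cell types were also read. The summed level of the 6 Kupffer cell and macrophage genes on the array, 5 of them bright enough to be tested, was higher with DINP. After 24 h it was 21050 to 23550 at 25 mM and 20338 to 21798 at 100 mM, against 18492 to 20222 in vehicle. After 48 h it was 23770 to 27944 and 24719 to 25644, against 19032 to 21143. Of the 5 tested, Cd14 was the only one called (0.25, 0.19, 0.42 and 0.34 in the order used above). Not all of the others shared its direction. At 24 h Clec4f differed by -0.52 and -0.74, Cd68 by -0.07 and -0.30, C1qa by 0.17 and -0.002 and Csf1r by 0.20 and 0.14 (25 mM, then 100 mM). At 48 h Clec4f differed by -0.10 and -0.004, Cd68 by 0.16 and 0.19, C1qa by 0.17 and 0.24 and Csf1r by 0.04 and -0.01. The adipocyte list, which shares triglyceride functions with hepatocytes, had 3 tested genes of 5. Its lipid droplet gene Cidec was called higher in all 4 comparisons (0.43 to 0.73) and Fabp4 at 100 mM and 48 h (0.72 ± 0.16). Plin1 differed by -0.17, -0.60, -0.34 and -0.69 in the order used above and was not called. The summed level of all 5 genes at 24 h was 7367 to 8513 at 25 mM and 7769 to 8898 at 100 mM, against 4874 to 7303 in vehicle. At 48 h it was 8143 to 10513 and 9354 to 10369, against 6357 to 9133. Adiponectin and leptin transcripts (Adipoq and Lep) were too dim to be tested. Stellate, endothelial and biliary lists had 4, 3 and 2 tested genes, with Acta2 lower at 100 mM and 48 h and Epcam lower at both doses at 48 h as their only calls. Krt19, the other tested biliary gene, differed at 48 h by -0.24 at 25 mM and 0.33 at 100 mM. The other tested stellate genes, Col3a1, Des and Col1a1, differed by -0.17, -0.03 and 0.08 at 100 mM and 48 h. The sums cover all listed genes on the array, 4 biliary and 7 stellate, tested or not. The summed biliary level at 48 h was 8810 to 11706 at 25 mM and 10439 to 12645 at 100 mM, against 11848 to 14309 in vehicle. The summed stellate level was 2976 to 3436 and 2687 to 3130, against 3131 to 3776. Of the lymphocyte genes, 0 of 3 on the array were bright enough. The part of other cell types in the results on the 8 genes was not tested.

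The deposited values had one scale on every array, and replicates of a group correlated at 0.9656 to 0.977 over tested probe sets. An array stood apart on a probe set where its gap to the nearest array of its group exceeded 0.71 of the group's range. One array, vehicle 48 h replicate 1, stood apart on 2.63% of the tested probe sets, against 0.859% to 1.82% for the other arrays. Without it Dgat1, Mttp, Agpat2 and Lpin1 were still called in both 48 h comparisons, Lpin2 stayed uncalled, Gpam lost its call at 25 mM, and Dgat2 gained one at 100 mM (0.20, adjusted p = 0.024). Centring each array on its median in place of that scaling added 0.10 to log2 differences at 100 mM and 48 h, 0.07 and 0.08 at 24 h and 0.00 at 25 mM and 48 h. It raised the share of higher calls among all called genes to 71.3% at 25 mM and 24 h, 76.3% at 100 mM and 24 h and 78% at 100 mM and 48 h, where the deposited scaling gave 50.1%, 51.8% and 48.6%. Dgat1, Mttp and Agpat2 were called higher and Lpin1 lower under both scalings in all 4 comparisons.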

How the data were processed

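RNA of 30 cultures in 6 groups of 5 was hybridised to Affymetrix rat expression arrays. The authors deposited 1 linear intensity for each probe set on each array. The tool was MAS5 per the submitters' processing notes, and its version is not given. The 2% trimmed mean of the intensities was 1499.98 to 1499.99 on every array, the mark of a common scaling done before deposit, and no detection calls were used. The number of arrays limits the precision.

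From these, log2(signal + 16) was computed. Folds and log2 differences are on that scale and understate changes of dim genes. Of 31099 probe sets, 57 controls were dropped, and those at or above the 40th percentile of mean log2 signal were tested, the dimmest at 7.956. Genes took their names from the platform's annotation, in part out of date, with symbols updated through Entrez IDs for 20758 probe sets from a RefSeq gene table (assembly GRCr8). Of 31042 probe sets, 20826 had 1 symbol, 436 had several and 9780 were unnamed here, and 0 member probe sets had several.

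The test was limma 3.58.1 (R 4.3.3), with all 6 groups in 1 model, 24 residual degrees of freedom, empirical Bayes moderation with a trend on signal, and Benjamini-Hochberg adjustment over all tested probe sets within each comparison, at 0.05. The code was tested on simulated data. Alternatives were other added constants, filters, scalings, fits and summaries over probe sets, the array-number rounds as a block, and leaving out each array. The members and lists were chosen with earlier results of these data known. The genes named are all 8 members, all tested enzymes of the same steps, up to 4 called genes of each other list by mean change, Apob, P4hb, Srebf1, Ppara, Ppargc1a and Ehhadh in any case, marker genes of the cell type lists, and the 3 genes most like each member. Promoter windows come from RefSeq's promoter table for the same assembly.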

Additional observations from a re-analysis of the deposited data

Results flagged for a closer look

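Of 90 groups of 5 arrays, 3 held an array whose gap to its nearest neighbour, as a share of the group's range, was above Dixon's critical value of 0.71 for 5 samples. Chance alone gives about 1 in 20 such groups. All 3 concern dimmer probe sets that do not represent their gene in the counts. For Gpam probe set 1369758, DINP 100 mM 24 h replicate 5 stood at a signal of 1624.3, against 1169.6 to 1263.1 in the other 4 arrays of its group (gap 0.766 of the range). For Agpat3 probe set 1382227, DINP 25 mM 24 h replicate 4 stood at 1425.8, against 1264.4 to 1297.6 (0.785). For Agpat3 probe set 1372276, DINP 100 mM 48 h replicate 2 stood at 1315.8, against 863.46 to 968.86 (0.727). The effect of a dose was called different between 48 h and 24 h for 0 of 30 combinations of a tested member probe set and a dose by limma (4 at an unadjusted p under 0.05). These combinations are not independent, since some genes have several probe sets and both doses share the vehicle arrays. Whether 4 of 30 differs from the share of all tested probe sets was not tested.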

How the results depend on the processing

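Over the 4 comparisons with the vehicle, the 8 genes gave 672 alternative values, of which 600 kept direction and side of the threshold, 54 lost a call, 11 gained one, 0 reversed a call and 7 changed sign without a call. Dgat1, Mttp, Agpat2 and Lpin1 kept every call under all 21 alternatives of each comparison, with Dgat1 between 0.79 and 1.04, Mttp between 0.33 and 0.61, Agpat2 between 0.29 and 0.46 and Lpin1 between -0.97 and -0.52. Of 8 genes, the calls in vehicle at 48 h minus 24 h, 4 as reported, were 1 with median centring, 1 with a fit of only the compared groups, 6 with the median over probe sets, and 1 to 5 with 1 array left out. Of all 10604 tested genes, 1846 were called there as reported, 1366 with median centring, and 1409 to 1990 with 1 array left out. Whether the counts of the 8 genes differ from those shares was not tested. Over all genes, 100 mM minus 25 mM at 24 h gave 1 call as reported, 2 without a variance trend, 2 with array weights, 0 with only the compared groups and 1 to 2 with 1 array left out. At 48 h it gave 1 as reported, 0 without a trend, 2 with the array-number round as a block, 0 with only the compared groups and 0 to 3 with 1 array left out. The 48 h minus 24 h effect of 25 mM gave 38 calls as reported (68.4% higher) and 12 with median centring (50% higher), and that of 100 mM gave 12 as reported (75% higher), 22 with quantile normalization (54.5% higher), 23 with array weights and 10 to 19 with 1 array left out. For Apob at 25 mM and 48 h, the median over its probe sets gave -0.053. The cause of these changes was not tested. Median centring also moved 100 mM minus 25 mM at 48 h by 0.105, under which Gpam, Agpat2, Dgat2 and Mttp changed sign there without a call. The labels give no replicate numbers to pair by, and the block of 5 rounds of array numbers, each with 1 array of each group, changed no call of the 8 genes against the vehicle. Wells of unstated donors, 1 probe set for Agpat2, Dgat1 and Mttp, and probe sets that disagree for Gpam, Agpat3, Lpin2 and Dgat2 limit what the signals show about each gene.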
